A study of Mus musculus with 12 samples.

Results

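The response to low oxygen that 6 lines of mouse embryonic fibroblasts had in common was measured as the change within each line, between a culture kept for 6 h at 0.1% O2 (hypoxia) and one kept at 21% O2 (normoxia). All 12 of the 12 arrays of the study entered, 1 per culture, as 6 pairs, with the weight on repressed genes and on modest increases. Of the lines, 3 (triCH1flox1, triCH1flox2_1 and triCH1flox2_2) lacked the CH1 domain in 3 of the 4 alleles of Crebbp and Ep300, the genes of the acetyltransferases CBP and p300. The last allele was floxed, in Crebbp for triCH1flox1 (CBP CH1/flox;p300 CH1/CH1) and in Ep300 for triCH1flox2_1 and triCH1flox2_2 (CBP CH1/CH1;p300 CH1/flox). The 3 control lines had wild-type domains and 1 floxed allele, in Crebbp for flox1 (CBP+/flox) and in Ep300 for flox2_1 and flox2_2 (p300 +/flox). Every line, controls included, was made from e14.5 embryos, had received a Cre adenovirus at passage 3 and had then grown at least 100-fold, so no line kept an untouched set of 4 alleles by design. All cultures were subconfluent, had 5% CO2 at 37 °C, and were given medium equilibrated in advance at their oxygen level. The labels do not state how completely the floxed alleles were removed or whether each line came from its own embryo, so p-values measure the spread between these lines.

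Cells at low oxygen stop hydroxylating the HIF-α proteins, which then accumulate, pair with ARNT and bind short DNA motifs near target genes, among them those of glycolysis, angiogenesis and the oxygen-sensing hydroxylases themselves. The CH1 domain of CBP and p300 binds the transactivation domain of HIF-1α. Low oxygen also slows costly processes such as ribosome production and protein synthesis, and it can start the integrated stress response, in which the factor ATF4 turns on genes of amino acid supply.

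Promoter sequence is shown for the genes with the smallest p among the lower and the modestly higher genes. Bnip3 and Smtnl2, both strongly raised, are added, and all serve as examples of what was and was not found upstream. The label next most raised ranks genes by their probe set of smallest p. Log2 changes were then 3.298 for Smtnl2 and 3.297 for Pdk1, but another Pdk1 probe set (1423747_a_at) rose by 3.43. Smtnl2 was so dim in normoxia (signals 6.7 to 25.3) that the constant added to signals sets the size of its change. That change was 4.62 with 1 and 1.81 with 100 added, against 3.42 and 2.89 for Pdk1. The sequences are the 250 bases before the annotated start, 5′ to 3′ on the gene's strand, from RefSeq on GRCm38.p6, and only genes with 1 listed start are shown. Capitals mark ACGTG, the core of the HIF-binding element, and its relative GCGTG, each searched on both strands (CACGT and CACGC on the other strand). A CACGTG run holds ACGTG on both strands.
Rcl1, lower, chr19:29101125-29101374, plus strand: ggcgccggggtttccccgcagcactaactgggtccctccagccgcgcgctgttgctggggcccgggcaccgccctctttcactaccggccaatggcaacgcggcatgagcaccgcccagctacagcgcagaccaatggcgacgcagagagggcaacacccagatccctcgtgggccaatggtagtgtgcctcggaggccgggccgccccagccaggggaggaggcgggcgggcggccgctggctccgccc
Ccdc86, lower, chr19:10949267-10949516, minus strand: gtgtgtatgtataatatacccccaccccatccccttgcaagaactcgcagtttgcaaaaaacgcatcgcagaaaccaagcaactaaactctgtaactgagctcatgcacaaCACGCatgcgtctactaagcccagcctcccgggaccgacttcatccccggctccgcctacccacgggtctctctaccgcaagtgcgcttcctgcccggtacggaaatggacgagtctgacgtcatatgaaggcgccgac
Tpi1, modestly higher, chr6:124814159-124814408, minus strand: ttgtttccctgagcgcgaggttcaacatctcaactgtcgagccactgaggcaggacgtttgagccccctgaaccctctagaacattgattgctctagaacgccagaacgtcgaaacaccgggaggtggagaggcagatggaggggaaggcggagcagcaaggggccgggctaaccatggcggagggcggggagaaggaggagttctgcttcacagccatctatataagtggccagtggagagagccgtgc
Ier3, modestly higher, chr17:35821463-35821712, plus strand: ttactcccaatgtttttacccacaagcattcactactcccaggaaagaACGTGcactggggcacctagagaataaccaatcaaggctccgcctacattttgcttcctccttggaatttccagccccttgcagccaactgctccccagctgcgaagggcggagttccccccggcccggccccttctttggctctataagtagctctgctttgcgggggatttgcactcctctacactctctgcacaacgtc
Bnip3, most raised, chr7:138909507-138909756, minus strand: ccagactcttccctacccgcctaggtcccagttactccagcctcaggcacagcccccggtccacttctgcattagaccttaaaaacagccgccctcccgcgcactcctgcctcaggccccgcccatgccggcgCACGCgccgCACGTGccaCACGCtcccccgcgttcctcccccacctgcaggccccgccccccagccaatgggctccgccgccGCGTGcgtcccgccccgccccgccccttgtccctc
Smtnl2, next most raised, chr11:72411714-72411963, minus strand: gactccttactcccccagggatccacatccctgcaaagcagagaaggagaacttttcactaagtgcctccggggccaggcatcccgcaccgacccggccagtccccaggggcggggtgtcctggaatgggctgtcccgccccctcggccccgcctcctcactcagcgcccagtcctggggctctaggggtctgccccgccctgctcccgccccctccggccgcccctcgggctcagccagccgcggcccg

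Neither motif was in the windows of Rcl1, Tpi1 and Smtnl2, Ier3 had 1 ACGTG and Ccdc86 had 1 GCGTG. Bnip3 had a CACGTG and 3 copies of GCGTG. Over called genes with a promoter in the table, ACGTG was in 29 of 82 (35.4%) raised by over 2-fold, 56 of 185 (30.3%) raised by less and 43 of 207 (20.8%) lowered genes, against 22.9% of the 8223 tested genes with a promoter and 16.6% of all 27025 promoters. The corresponding shares for GCGTG were 57.3%, 50.3% and 48.3% in the called genes, against 47.7% of tested genes and 28.2% of all promoters. CACGTG was in 4.88%, 12.4% and 10.1% of them, against 8.90% of tested genes and 6.05% of all promoters. Median GC content was 62% and 63.6% in the raised genes and 59.2% in the lowered genes, against 60.8% in tested genes. These shares were not tested, and a match is only a match of letters. Genes counted as raised by over 2-fold if any called probe set was, which put Tpi1 in that class.

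Fibroblast markers were bright: Col1a1, Col1a2, Col3a1 and Vim, which encode collagen chains and vimentin, had mean signals of 21734, 28728, 19019 and 44244. Of 11 fibroblast markers on the array, 10 averaged at least 100, and only Pdgfra, a growth factor receptor gene, was called in hypoxia (-0.90 ± 0.23, adjusted p = 0.0423). That call was kept in 1 of 6 fits that left out a line and lost with 1 value per gene (adjusted p = 0.0826), and its other probe set changed by -0.18 (adjusted p = 0.688). Of 10 markers each, 3 of skeletal muscle, 2 of endothelium, 3 of macrophages, 4 of epithelium and 5 of neural cells averaged at least 100, as did 4 of 8 cartilage and bone and 2 of 8 adipocyte markers. The brightest of these were Acta1, a muscle actin (mean 13576), Krt19, a keratin (3118), and Stmn2, a neural stathmin (2170), of which Krt19 was called higher. Arrays correlated between 0.937 and 0.963 (Pearson's r of log2 signals) and 0 pairs were identical. Among 7 quality measures of the arrays, including scale factor and the 3′ to 5′ ratios of Actb and Gapdh, the smallest exact sign-flip p over lines was 0.0625 (two-sided, 64 flips, 0.292 adjusted over the measures). That p belonged to the Gapdh ratio, which was higher in hypoxia in 5 of 6 lines. The line flox2_1 stood apart. Its normoxia array had the lowest of the 12 scale factors (2.57, the others reaching 4.28), and without this line more probe sets were called, 616 higher and 426 lower.

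Repression in hypoxia was modest in size, and so were most of the increases. Of 18903 probe sets with a mean signal of at least 100, 500 were higher (2.65%) and 336 were lower (1.78%) in hypoxia at an adjusted p under 0.05 (limma, line as a block). They belonged to 334 and 257 genes. All 6 lines moved the same way in 471 of the higher and 320 of the lower probe sets. Over all tested probe sets, 5.14% were positive and 7.23% negative in all 6 lines. Only 5 lower probe sets changed by over 2-fold, 109 by 1.5-fold to 2-fold and 222 by less. Among the higher ones these counts were 163, 163 and 174. The median change was -0.52 on the log2 scale for lower and 0.73 for higher probe sets. At an unadjusted p under 0.05 1472 were higher and 2040 lower, while median centring gave 1685 higher and 1578 lower at that level. In cultures measured whole, fewer cells of a type and less RNA per cell cannot be told apart, and arrays scaled to a common mean show changes relative to the rest of the RNA. The count of lower probe sets depended on the pairing: without the line as a block, 269 were higher and 62 lower. The count also fell to between 138 and 219 when flox1, flox2_2 or any triCH1 line was left out.

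The response was read again in lines that had no part in making the calls. Leaving out flox1, 138 probe sets (0.73%) were called lower in the other 5 lines, and 130 of them (94.2%) were also negative in flox1. The shares were 90.9% of 165 in flox2_2 (0.873% called), 88.6% of 219 in triCH1flox1 (1.16%), 93.7% of 142 in triCH1flox2_1 (0.751%) and 95.4% of 152 in triCH1flox2_2 (0.804%). In flox2_1 the share was smaller, 79.8% of 426 (2.25% called). Of all tested probe sets, 51.2% to 54.8% were negative in a line. Higher calls made without a line numbered 366 without flox1 (1.94%), 616 without flox2_1 (3.26%), 390 without flox2_2 (2.06%), 424 without triCH1flox1 (2.24%), 348 without triCH1flox2_1 (1.84%) and 359 without triCH1flox2_2 (1.9%). Of those under 2-fold, 92.1% to 97.8% were positive in the left-out line for all lines but flox2_1, where 303 of 455 (66.6%) were, against 45.2% to 48.8% of all tested probe sets positive in a line.

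The repressed set was also read across line types. In the 3 triCH1 lines fitted alone, 44 probe sets were lower (0.233%), and 41 of them were negative on average in the 3 control lines, where 56.9% of all tested probe sets were. In the 3 control lines fitted alone, 8 were lower (0.0423%), and 8 of 8 were negative in the triCH1 lines (53.2% of all). At an unadjusted p under 0.001 in triCH1 lines, 56 were lower (0.296%), with a median of -0.71 in triCH1 and -0.46 in control lines, and 53 of 56 were negative in control lines. At that level in control lines, 14 were lower (0.0741%), and 14 of 14 were negative in triCH1 lines. Of modest increases at the same level, 138 (0.73%) in triCH1 lines, 136 were positive in control lines, and of 48 (0.254%) in control lines, 48 were positive in triCH1 lines. The test of the difference between line types, triCH1 minus control, called 0 of 18903 probe sets (0%), with 302 at an unadjusted p under 0.05 (limma). Without flox2_2, 2034 were at that level, against 200 to 360 without any other line, and again 0 passed after adjustment. That unadjusted level was met by 7 of the 336 lower probe sets (2.08%) and by 47 of the 500 higher ones (9.4%), against 1.60% of all tested. In a joint fit, 297 of the 336 lower and 249 of the 500 higher probe sets were called in neither type by itself, where the triCH1 lines had 12 lower (0.0635%) and 177 higher (0.936%) and the control lines 35 lower (0.185%) and 229 higher (1.21%).

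**Figure D1:**
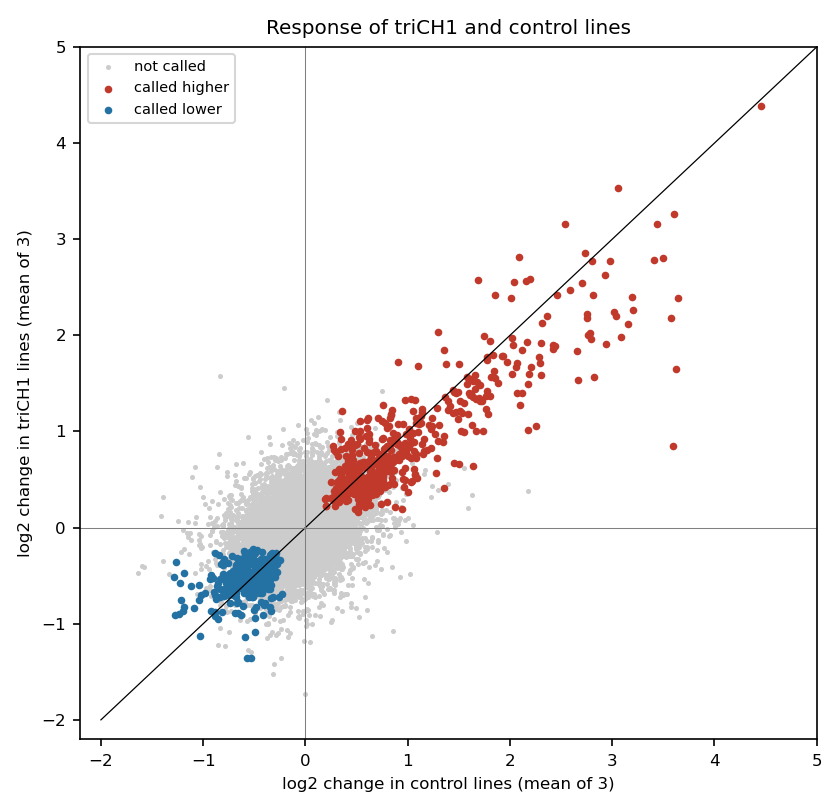
Mean log2 change, hypoxia minus normoxia, of each tested probe set in 3 triCH1 lines (vertical) and 3 control lines (horizontal), with probe sets called higher in red, called lower in blue, others in grey, and the line of equal change in black. The 336 lower probe sets lie between -1.09 and -0.28 in their mean over all 6 lines, below and left of 0, and the 500 higher ones reach 4.42.

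Among the repressed genes, the 24 with the smallest p and 1 direction in all lines changed by -0.43 to -1.03 on the log2 scale. In 11 of them the 6 hypoxia arrays lay below all 6 normoxia arrays, as in 0.709% of tested probe sets. Since they were picked by p, nothing is read from that share. Rcl1 (1416730_at), which encodes a nucleolar protein of pre-ribosomal RNA processing, had the smallest p. Its signal was 591 at the lowest, 803 in the median and 1002 at the highest in hypoxia, against 1150.1, 1468 and 1574 in normoxia. No hypoxia array reached the normoxia range, and the fall was -0.81 ± 0.09 (SE, n = 6 pairs, adjusted p = 0.000112), with -0.75 ± 0.15 in triCH1 and -0.87 ± 0.15 in control lines. Spsb2 (1422106_a_at), a substrate adaptor of a ubiquitin ligase, had 207, 252 and 357 in hypoxia against 493, 545 and 634 in normoxia. It was the largest fall of the 24 (-1.03 ± 0.12, adjusted p = 0.000138), again with no overlap, and its other, dimmer probe set did not pass (-0.42 ± 0.23, adjusted p = 0.351). Ercc8 (1432249_a_at), needed for repair of transcribed DNA, had 100.3, 184 and 205 in hypoxia against 264, 315 and 419 in normoxia (-0.96 ± 0.15, adjusted p = 0.00166), with separate ranges, but its other probe set (1427194_a_at), of like brightness, did not pass (-0.31 ± 0.14, adjusted p = 0.265). Orai1 (1424989_at), the pore of the store-operated calcium channel, had 88.2, 134 and 179 in hypoxia against 224, 273 and 305 in normoxia, also without overlap (-0.90 ± 0.15, adjusted p = 0.00288). Ccdc86, Grwd1, Slc9a3r1, Gpd1l, Ndufaf4 and Bid each had a further probe set with a negative change that did not pass, between -0.65 (Gpd1l) and -0.32 (Ccdc86).

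**Figure D2:**
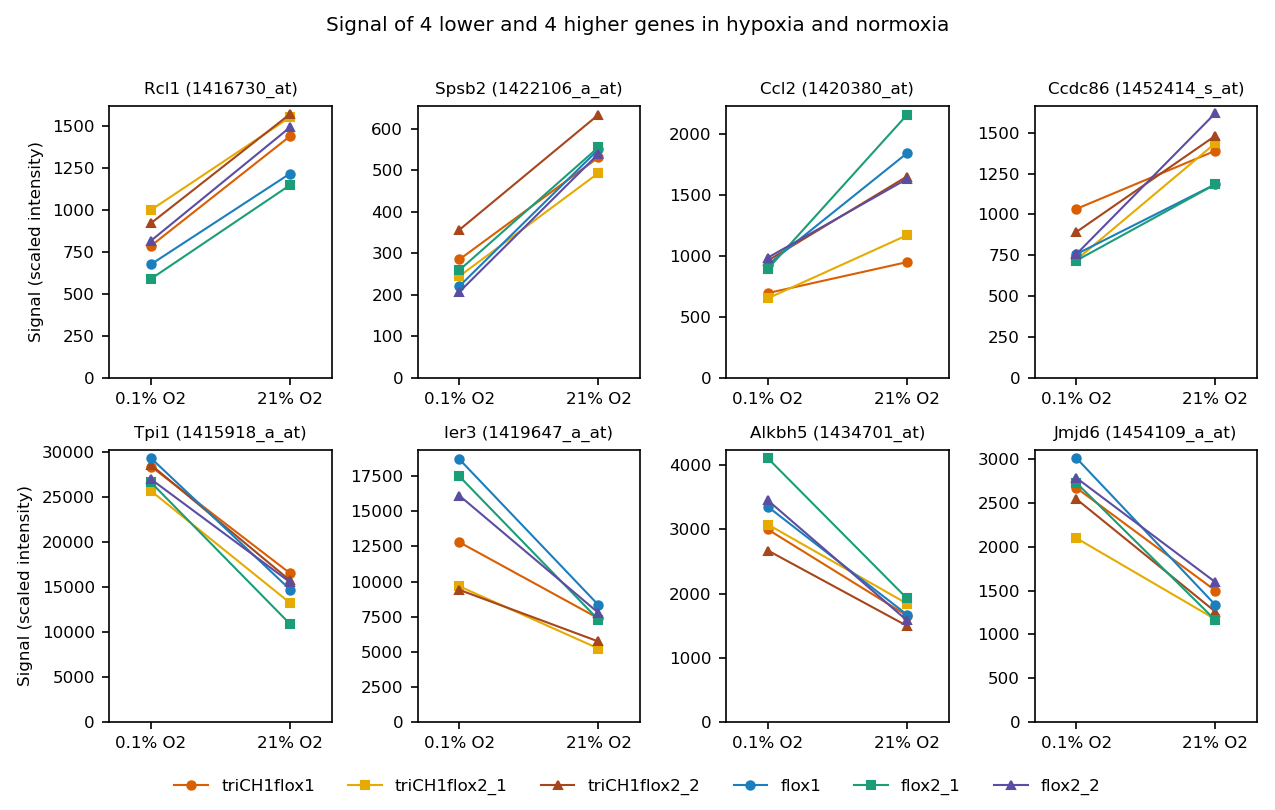
Signal (scaled intensity, linear axis from 0) in hypoxia (0.1% O2, left) and normoxia (21% O2, right), with 1 line per culture pair, for the 4 lower genes (top) and the 4 modestly higher genes (bottom) with the smallest p. All 6 pairs fall or rise together in each panel, and Ccl2 is the gene of these 8 whose hypoxia and normoxia ranges overlap.

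The other genes of the 24 were of varied roles. Ccnd1 (1417419_at), the gene of the cell-cycle driver cyclin D1, had 2488, 3156 and 4906 in hypoxia against 3378, 4218 and 6980.1 in normoxia. The ranges overlapped because the lines differed in level, while each line fell, by 0.35 to 0.65 (-0.48 ± 0.08, adjusted p = 0.00197), and both its other probe sets were called too. Txnip (1415996_at), which restrains thioredoxin and glucose uptake, had 824, 1488 and 2062 in hypoxia against 1539, 2716 and 2919.6 in normoxia (-0.79 ± 0.12, adjusted p = 0.00177). It was the 1 gene of the 24 with an unadjusted p under 0.05 for the difference between line types, with -1.08 ± 0.15 in triCH1 and -0.50 ± 0.15 in control lines (adjusted p of the difference 0.99983, limma). Mtap (1451345_at), of the methionine salvage pathway, fell least but most evenly, by 0.37 to 0.48 in the 6 lines. It had 4677, 5364 and 5984 in hypoxia against 6524, 7132 and 7762 in normoxia (-0.43 ± 0.07, adjusted p = 0.00178), and its 3 other probe sets were called lower as well. Gpd1l, a relative of glycerol-3-phosphate dehydrogenase (-0.72 ± 0.12), Gmppb, which makes GDP-mannose (-0.64 ± 0.10), and Ampd2, an AMP deaminase (-0.58 ± 0.09), fell in every line, as did the pro-apoptotic gene Bid (-0.56 ± 0.09) and the co-chaperone gene Hsph1 (-0.76 ± 0.11). The receptor gene S1pr3 (-0.72 ± 0.12) and the scaffold gene Slc9a3r1 (-0.73 ± 0.11) completed this group with Fam117a (-0.72 ± 0.12).

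**Figure D3:**
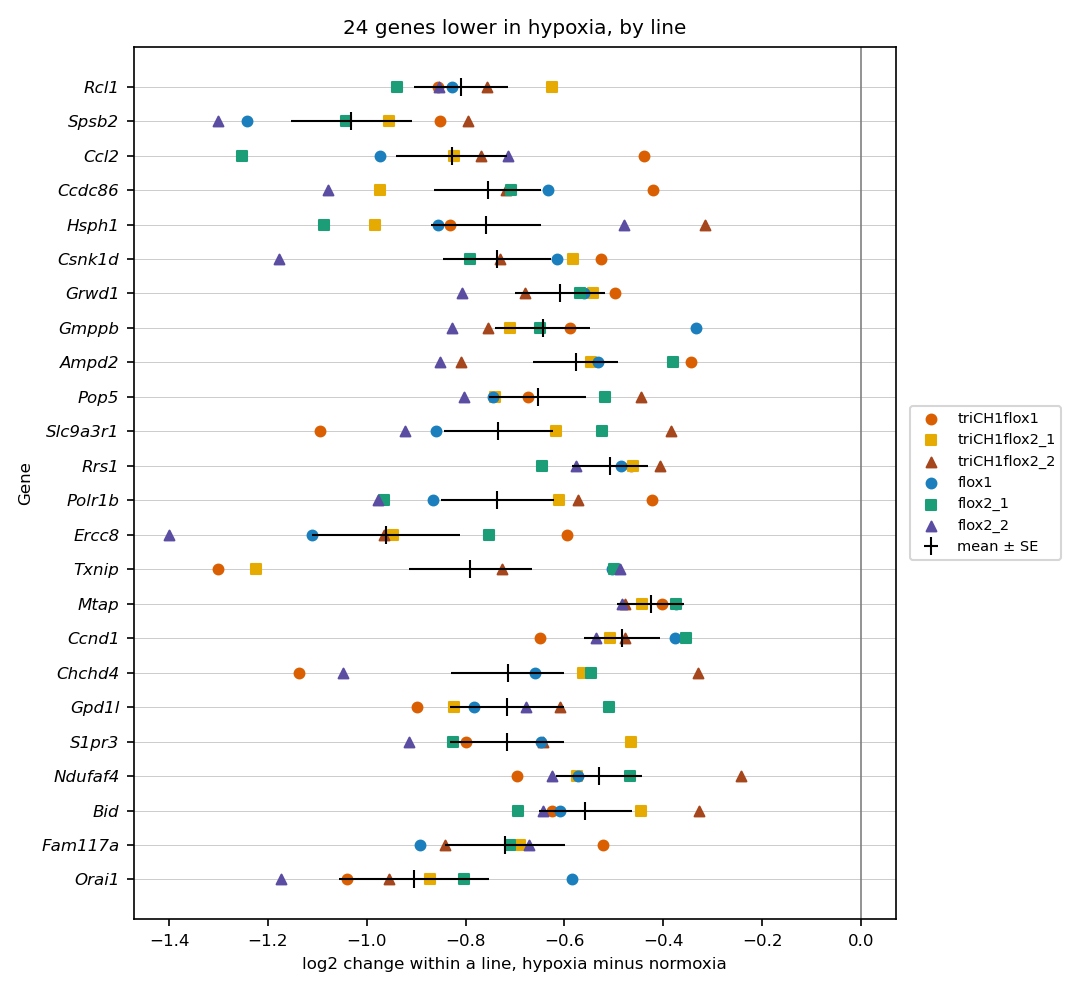
Log2 change within each line, hypoxia minus normoxia, for the 24 repressed genes with the smallest p, 1 symbol per line, with the mean and standard error over 6 lines in black. Every point is below 0, from -1.40 (Ercc8) to -0.24 (Ndufaf4).

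Csnk1d, a casein kinase gene, was the 1 gene called in both directions. Its probe sets 1449932_at, 1415825_s_at and 1437690_x_at fell by 0.74, 0.62 and 0.73 (adjusted p = 0.00108, 0.00202 and 0.0026), while 1418889_a_at and 1456727_a_at rose by 0.48 and 0.49 (adjusted p = 0.00586 and 0.0105). Averaged over its 5 probe sets, no direction was left for the gene (-0.22, adjusted p = 0.169). In the RefSeq table its end overlaps that of Slc16a3, the gene of a lactate exporter, which rose by 2.53 ± 0.14 (1449005_at, adjusted p = 7.08e-08). Spsb2 and Tpi1 are likewise neighbours with overlapping ends, and they moved in opposite directions. Of called genes, 5 pairs overlapped in that table. Whether probes of a gene read RNA of its neighbour was not tested.

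The repressed genes of known function included a group that builds ribosomes. The lists here and in later paragraphs were chosen with earlier results of these data known. An excess of calls in a list over all genes is therefore not independent evidence. Of 100 tested ribosome biogenesis factors, 19 were lower and 0 higher, against 2.12% lower and 3.1% higher over 10059 genes taken at 1 probe set each. Their median was -0.23, against -0.04 over those genes, and 89 of 100 were negative. In each line the median lay between -0.30 and -0.19, with -0.22 in triCH1 and -0.26 in control lines, and it was -0.21 under quantile normalization and under median centring. The 6 with the smallest p were Rcl1, Rrs1, Polr1b, Rrp9, Pwp2 and Bysl. Rrs1 (1416998_at), which helps to assemble the large subunit, had 2301, 2762 and 4055 in hypoxia against 3231, 3972 and 5384 in normoxia. The ranges overlapped, and the change was -0.51 ± 0.08 (adjusted p = 0.00125), from -0.64 to -0.41 in the lines. Polr1b (1416126_at), a catalytic subunit of RNA polymerase I, had 343, 502 and 632 in hypoxia against 689, 819 and 976 in normoxia. Its ranges were separate (-0.74 ± 0.11, adjusted p = 0.00163). The small-subunit factors Rrp9 (-0.61 ± 0.12), Pwp2 (-0.62 ± 0.13) and Bysl (-0.45 ± 0.09) fell in 6 of 6 lines each. Nucleolar or ribosome-linked genes outside the list were among the 24 too: Ccdc86 (-0.76 ± 0.11, adjusted p = 0.000801), Grwd1 (-0.61 ± 0.09, adjusted p = 0.00117) and Pop5, a subunit of the RNA-processing enzymes RNase P and MRP (-0.65 ± 0.10, adjusted p = 0.00123). The number of list members called was 8 without flox1, 11 without triCH1flox2_1, 12 without flox2_2 or triCH1flox2_2, 14 without triCH1flox1, 17 without flox2_1 and 5 without the line as a block.

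Of 31 tested subunits of RNA polymerases I and III, 4 were lower and 1 higher (2.12% and 3.1% over all genes), with a median of -0.15 and 24 negative. Besides Polr1b, Polr3e (-0.60 ± 0.12), Polr1a (-0.53 ± 0.11) and Polr1e (-0.40 ± 0.11) fell. The call of Polr1e was lost in each of the 6 fits that left out a line (adjusted p up to 0.162). Polr3g (1449155_at), a variant subunit of RNA polymerase III, rose (0.98 ± 0.15, adjusted p = 0.00158), with 274, 410.1 and 503 in hypoxia and 133, 191 and 291 in normoxia. The ranges overlapped at their ends. The 42 tested genes of cytosolic ribosomal proteins had 0 calls (limma; 9 higher and 0 lower at an unadjusted p under 0.05) and a median of 0.10, which became -0.02 under quantile normalization. Genes of mitochondrial translation also had 0 calls among 72 (12 lower and 0 higher at an unadjusted p under 0.05), although 66 were negative (median -0.14). Their line medians lay between -0.32 and 0.02.

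In the mitochondrion, the import genes Chchd4 and Timm10 fell, and 0 of 70 tested subunits of the respiratory chain were called lower. Chchd4 (1417233_at), the oxidoreductase that folds imported proteins in the intermembrane space, had 1030.5, 1201 and 1596 in hypoxia against 1622, 2145 and 2388 in normoxia. The 2 ranges did not overlap (-0.71 ± 0.11, adjusted p = 0.002). Timm10 (1417499_at), a small carrier chaperone of that space, changed by -0.55 ± 0.11 (adjusted p = 0.00941). Of 26 tested import genes, 2 were lower and 0 higher (median -0.12, lines -0.29 to 0.04), where 2.12% of all genes were lower. Counts this small do not set the import list apart from the respiratory chain. Ndufaf4 (1427997_at), an assembly factor of complex I, fell by 0.53 (SE 0.09, adjusted p = 0.00254). Of the respiratory chain subunits 1 was higher, Ndufv3 (1424628_a_at, 0.58 ± 0.08, adjusted p = 0.000533), and the list median was 0.01, or -0.03 under quantile normalization.

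Some inflammatory genes were lower in hypoxia. Of 19 tested chemokine and NF-kB genes, 7 were lower, 1 was higher and 11 were not called (2.12% lower and 3.1% higher over all genes). Their median of -0.25 was negative in all 6 lines, from -0.54 to -0.10. Ccl2 (1420380_at), the monocyte attractant gene, had 653, 912 and 988 in hypoxia against 951, 1644 and 2160.0 in normoxia. Only the lowest normoxia array, of triCH1flox1, fell inside the hypoxia range, and the change was -0.83 ± 0.11 (adjusted p = 0.000494). Its relative Ccl7 (1421228_at) had 304, 475 and 613 in hypoxia against 421, 868 and 1419 in normoxia (-0.83 ± 0.14, adjusted p = 0.00364). The ranges overlapped, and the fall was -0.47 ± 0.16 in triCH1 and -1.19 ± 0.16 in control lines (adjusted p of the difference 0.99983). The adhesion receptor gene Vcam1 (-0.53 ± 0.11), the neutrophil attractant gene Cxcl1 (-0.79 ± 0.19) and the inhibitor gene Nfkbie (-0.53 ± 0.13) fell as well. Tnfaip3, a feedback inhibitor of the same pathway, was the 1 higher gene (0.59 ± 0.12, adjusted p = 0.0109). The number called lower was 2 without flox1, triCH1flox2_1 or triCH1flox2_2, 3 without flox2_2, 4 without triCH1flox1, 7 without flox2_1, and 2 with the line as a random block or without it as a block. The summed signal of 10 macrophage markers lay between 478 and 620.1 in hypoxia and between 509.8 and 755 in normoxia and was lower in 5 of 6 lines, with Itgam, Tyrobp and C1qa each averaging under 20. Its part in the result was not tested.

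Other lists had few lower genes, to be read against the 2.12% of all genes that were lower. Of 26 endoplasmic reticulum chaperone and quality-control genes, 3 were lower and 0 higher: Creld2 (1452754_at, -0.51 ± 0.09, adjusted p = 0.00383), Syvn1, a ubiquitin ligase of that compartment (-0.60 ± 0.11), and Sdf2l1 (-0.55 ± 0.10). Creld2 had 1949, 2410.4 and 2596 in hypoxia against 2872, 3229 and 4024 in normoxia, without overlap. Of 23 nucleotide synthesis genes, the purine gene Gart (-0.44 ± 0.09) and the pyrimidine genes Ctps (-0.35 ± 0.08) and Umps (-0.46 ± 0.10) were lower and 0 were higher. Their calls were kept in 3, 2 and 3 of the 6 fits that left out a line. As 1 value per gene Gart was not called (-0.18, adjusted p = 0.421, limma), and its other probe sets did not pass. Of 43 DNA replication genes, the origin-licensing genes Cdc6 (-0.53 ± 0.12) and Cdt1 (-0.40 ± 0.11) were lower. Leaving out a line kept the call of Cdc6 in 2 and of Cdt1 in 1 of 6 fits. Of 41 mitotic genes 0 were lower and 1 was higher, Bub1 (0.57 ± 0.15), a call kept in 1 of those 6 fits. The 19 collagen chain genes, 17 histone deacetylase genes and 16 interferon response genes had 0 calls (limma; 2 lower and 1 higher, 1 lower and 0 higher, and 2 lower and 1 higher at an unadjusted p under 0.05).

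Among increases under 2-fold, the 24 with the smallest p and 1 direction in all lines changed by 0.59 to 0.98, and in 18 of them the 6 hypoxia arrays lay above all 6 normoxia arrays (1.43% of tested probe sets). Of these genes, Tpi1 (1.045), Pgk1 (1.27), Jmjd6 (1.002), Pgp (1.03) and Gopc (1.19) each had another called probe set that rose by over 2-fold. All 24 were called in each of the 6 fits that left out a line, as were all 24 repressed genes. Both sets were picked by p and by 1 direction in all lines of the full fit, so nothing is read from these counts. Glycolysis supplied several of the modest increases. Tpi1 (1415918_a_at), triosephosphate isomerase, had 25648, 27657 and 29292 in hypoxia against 10876, 15110.0 and 16511 in normoxia, far from overlap (0.95 ± 0.07, adjusted p = 1.07e-06). Pgam1 (0.68 ± 0.07), Aldoa (0.77 ± 0.08), Pgk1 (0.62 ± 0.07) and Ldha (0.59 ± 0.07), which encode enzymes of other steps and lactate dehydrogenase, also had separate ranges. A further probe set of Aldoa did not pass (0.09 ± 0.10). These transcripts were bright: Ldha (1419737_a_at) had 28062, 29963 and 33163 in hypoxia against 15562, 20509.5 and 22698 in normoxia. Of 18 glycolytic HIF targets, 16 were higher and 0 lower (3.1% and 2.12% over all genes), with line medians from 0.93 to 1.63.

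Alkbh5, Jmjd6 and P4ha1, whose products use oxygen as a substrate, were also among the 24. Alkbh5 (1434701_at), a dioxygenase that removes N6-methyladenosine from RNA, had 2671, 3214 and 4108 in hypoxia against 1497, 1665 and 1926 in normoxia, without overlap (0.93 ± 0.09, adjusted p = 1.3e-05). Jmjd6 (1454109_a_at), a lysyl hydroxylase of the JmjC family, had 2101, 2705 and 3016 in hypoxia against 1164, 1299 and 1598 in normoxia, also separate (0.97 ± 0.09, adjusted p = 1.77e-05). P4ha1 (1452094_at), a collagen prolyl hydroxylase subunit, had 3128, 4336 and 5648 in hypoxia against 2338, 2902 and 3254 in normoxia (0.64 ± 0.09, adjusted p = 0.000486), and here the ranges met. Over all genes, 3.1% were higher and 2.12% lower. Of the lists of such enzymes, 4 of 26 histone demethylase genes were higher and 0 lower: Kdm3a (1.85 ± 0.12) and Kdm4b (1.42 ± 0.16), both by over 2-fold, and Jmjd6 and Kdm5b (0.46 ± 0.09) by less. Of 17 collagen hydroxylase and crosslinking genes, 5 were higher and 0 lower, P4ha2 (1.31 ± 0.09) and Plod2 (1.13 ± 0.14) by over 2-fold and P4ha1, Plod1 (0.60 ± 0.11) and Lox (0.21 ± 0.05) by less. Lox (1416121_at, adjusted p = 0.035) was the smallest call of all, and as 1 value per gene it became -0.05 and was no longer called.

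**Figure D4:**
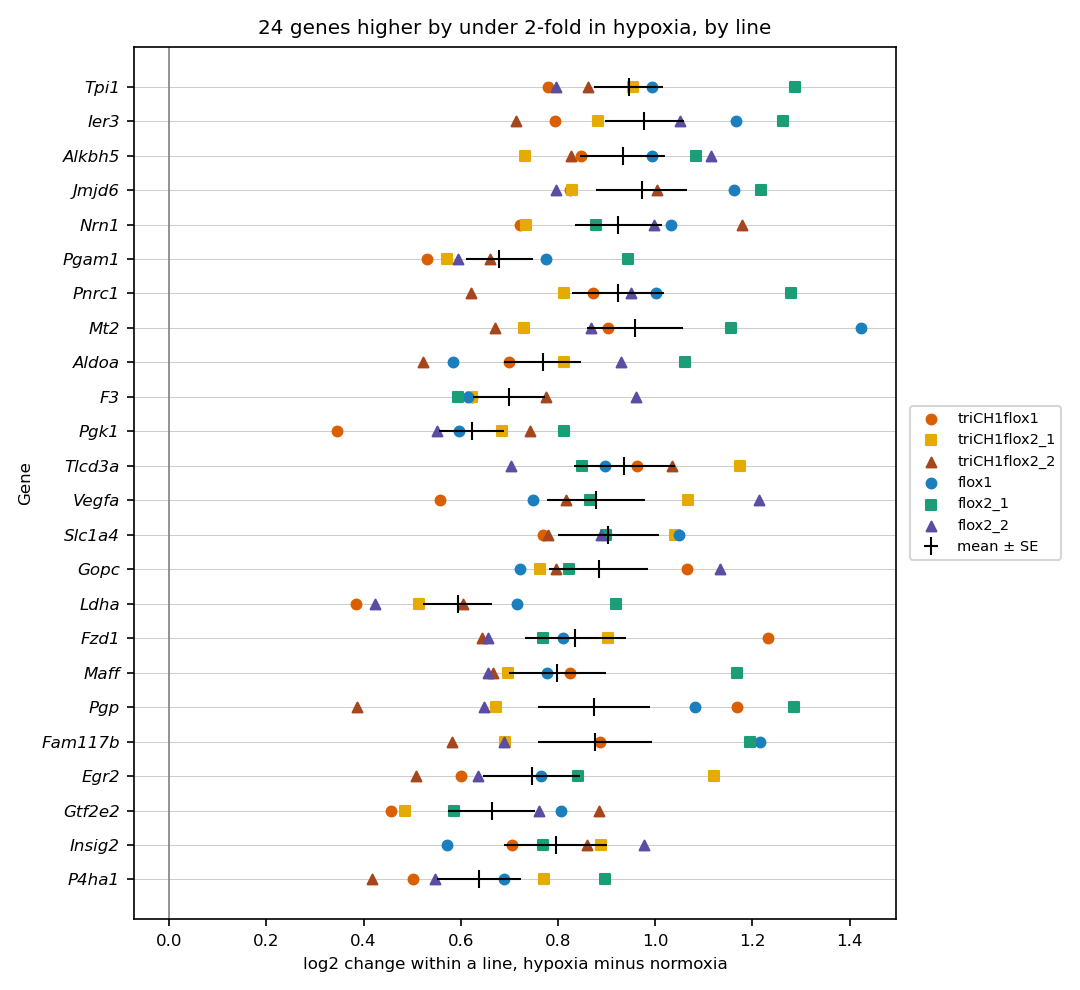
Log2 change within each line, hypoxia minus normoxia, for the 24 genes higher by under 2-fold with the smallest p, 1 symbol per line, with the mean and standard error over 6 lines in black. Every point is above 0, from 0.35 (Pgk1) to 1.42 (Mt2).

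The other modest increases were of varied roles. Ier3 (1419647_a_at), an early-response gene of cell survival, had 9406, 14459.7 and 18709 in hypoxia against 5229, 7328 and 8327 in normoxia. The ranges were separate (0.98 ± 0.08, adjusted p = 3.26e-06), with 0.80 ± 0.10 in triCH1 and 1.16 ± 0.10 in control lines (adjusted p of the difference 0.99983). Vegfa (1420909_at), the angiogenic factor gene, had 1377, 2833 and 3499 in hypoxia against 647, 1542 and 2039 in normoxia. Its ranges overlapped, and each line rose (0.88 ± 0.10, adjusted p = 9.52e-05). F3, which encodes tissue factor, the starter of coagulation (0.70 ± 0.07), Mt2, a metallothionein gene (0.96 ± 0.10), Nrn1, the gene of a neurite-promoting membrane protein (0.92 ± 0.09), and Fzd1, a Wnt receptor gene (0.84 ± 0.10), rose in 6 of 6 lines. So did Pnrc1, a nuclear receptor coactivator (0.92 ± 0.09), Gopc, a Golgi trafficking protein (0.88 ± 0.10), Gtf2e2, a subunit of general factor TFIIE (0.66 ± 0.09), and Pgp, phosphoglycolate phosphatase (0.87 ± 0.11). Tlcd3a (0.94 ± 0.10) and Fam117b (0.88 ± 0.12) completed the 24 with the genes of other paragraphs. Of 30 immediate early genes, 5 were higher and 0 lower (3.1% and 2.12% over all genes). Those were Ier3, the small Maf factor gene Maff (0.80 ± 0.10), Egr2 (0.75 ± 0.10, its other probe set not passing at 0.34 ± 0.23), Klf4 (0.45 ± 0.09) and Klf6 (0.54 ± 0.13). The other probe set of Klf4 did not pass (0.10 ± 0.12), and with 1 value per gene Klf4 was not called (adjusted p = 0.0825, limma). The call of Klf6 was kept in 2 of 6 fits that left out a line, and its other probe sets rose without passing.

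Many genes of the ATF4 programme rose. Of 27 tested ATF4 targets and serine one-carbon enzymes, 15 were higher, 0 lower and 12 not called, where 3.1% of all genes were higher and 2.12% lower. Their median was 0.46, and 25 were positive. The median was 0.45 in triCH1 and 0.45 in control lines, and 0.23 to 0.57 in single lines. Mthfd1l (1456653_a_at), a mitochondrial folate enzyme, had 2676, 3112 and 3235 in hypoxia against 1131, 1404 and 1526 in normoxia, with no overlap (1.12 ± 0.10, adjusted p = 5.56e-06). Slc1a4 (1423549_at), a transporter of alanine and serine, had 660.0, 813 and 1059 in hypoxia against 376, 442 and 523 in normoxia, also apart (0.90 ± 0.10, adjusted p = 0.000101). Chac1, a glutathione-degrading enzyme (0.82 ± 0.13), Aldh1l2 (0.70 ± 0.12) and Nupr1, a stress-induced nuclear protein (0.54 ± 0.08), rose by less than 2-fold. Vldlr, a lipoprotein receptor gene, was the largest (2.36 ± 0.13). Atf4 itself (0.45 ± 0.09), Ddit3 (0.60 ± 0.13) and Trib3 (0.81 ± 0.16), named after their values were seen, were called higher as well. Of 21 aminoacyl-tRNA synthetase genes, which ATF4 also serves, 2 were higher, Sars (0.41 ± 0.08) and Tars (0.31 ± 0.08), and 0 lower. Their calls were kept in 3 and 1 of the 6 fits that left out a line. Of the 27, 10 were called without triCH1flox2_1 and 10 without the line as a block.

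Of 31 genes of cholesterol and fatty acid synthesis, 7 were higher and 0 lower, where 3.1% of all genes were higher and 2.12% lower. They were led by Insig2 (1417981_at), which retains the sterol sensor in the endoplasmic reticulum (0.73 ± 0.10, adjusted p = 0.000507), and included Sqle (0.47 ± 0.08), Hmgcs1 (0.55 ± 0.10) and Insig1 (0.53 ± 0.10). The list median was 0.02, and it was -0.01 with 1 value per gene. Of 21 glycogen genes, 7 were higher and 0 lower (median 0.26, lines 0.21 to 0.37): the phosphatase subunit genes Ppp1r3b (2.79 ± 0.16) and Ppp1r3c, Pygl (1.63 ± 0.14), Gys1 (1.60 ± 0.10), Pgm1 (1.57 ± 0.11) and, more modestly, Stbd1 (0.56 ± 0.11), with Gbe1 (0.80 ± 0.17) as the last, named after its value was seen. Ppp1r3c (1433691_at) had 93, 286.5 and 536 in hypoxia against 2.7, 11.95 and 27.3 in normoxia. Its normoxia signals are so dim that the added 20 sets the size of its change, which was 3.02, or 4.26 with 1 and 1.67 with 100 added. Without triCH1flox2_1, 5 of the list were called.

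**Figure D5:**
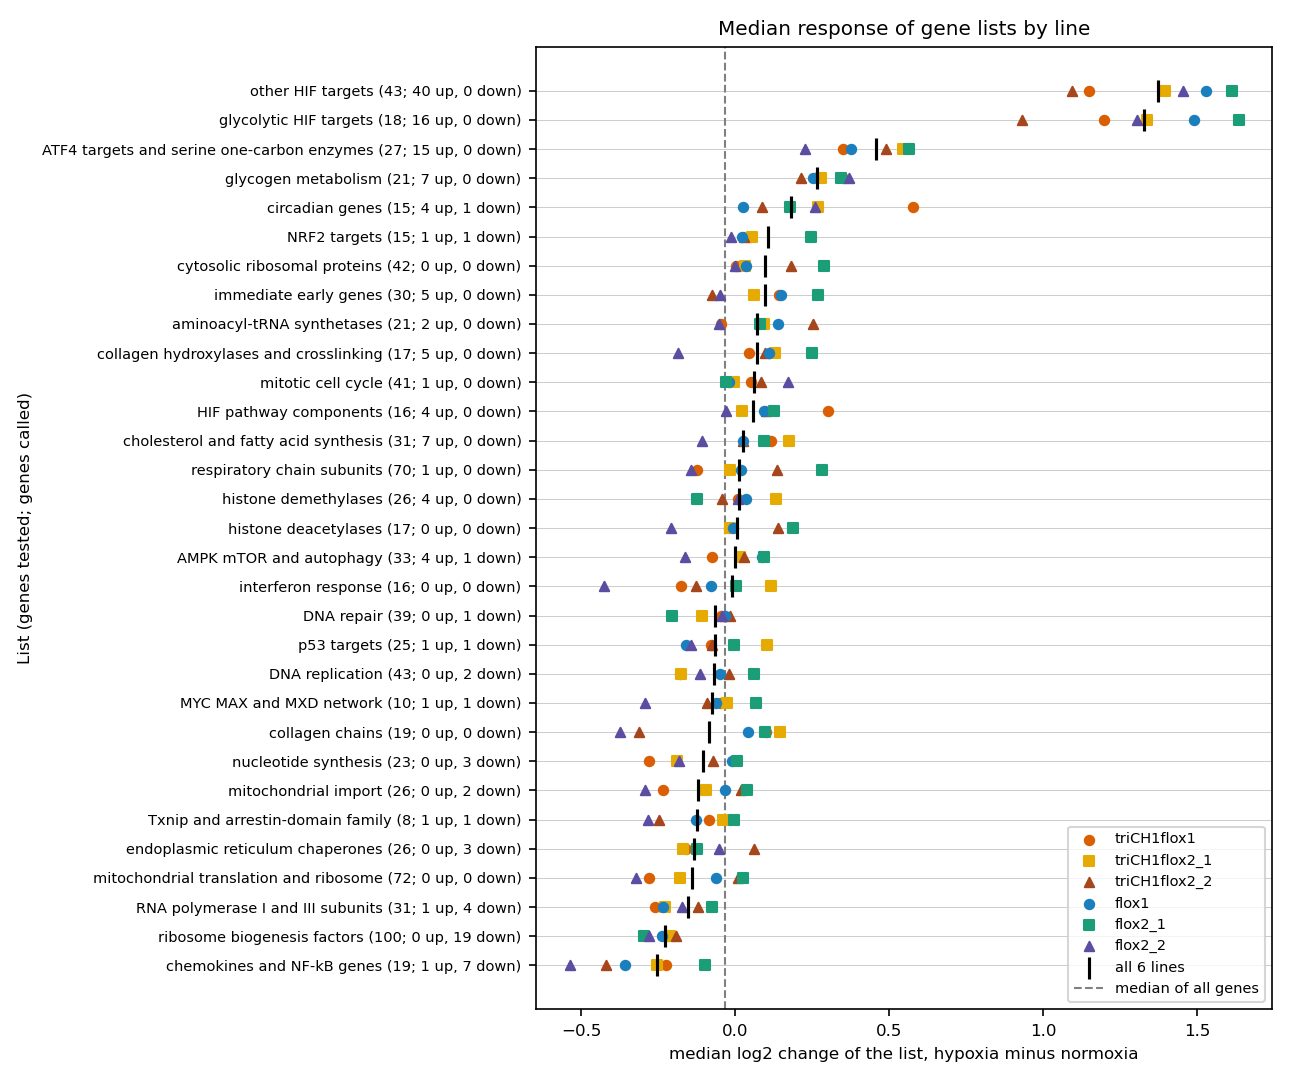
Median log2 change, hypoxia minus normoxia, of 31 gene lists in each of 6 lines (symbols) and over the mean changes (black bars), with the number of genes tested and called at the left and the median of all genes as a dashed line. Ribosome biogenesis, RNA polymerase, chemokine, DNA repair and Txnip-family lists lie left of 0 in every line. The HIF target, ATF4, glycogen, circadian and cytosolic ribosomal protein lists lie right of 0. The median of all genes is itself below 0 in every line.

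By unadjusted p, Egln3, Pfkfb3, Ampd3 and Ndrg1 were the higher genes that differed most between line types, and Ccl7, Txnip, Gpatch4 and Jpt1 the lower ones. Each gene is given at the called probe set with the smallest p of that difference. Egln3 (1418649_at), a HIF prolyl hydroxylase gene, changed by 2.18 ± 0.15 in triCH1 and 3.58 ± 0.15 in control lines (adjusted p of the difference 0.341, limma). Pfkfb3, whose product activates glycolysis, changed by 2.12 ± 0.16 in triCH1 and 3.15 ± 0.16 in control lines. Ndrg1 (1450977_s_at, the dimmest of its probe sets) changed by 1.99 ± 0.19 in triCH1 and 3.08 ± 0.19 in control lines. Ampd3, an AMP deaminase gene, changed by under 2-fold on average, with 0.41 ± 0.16 in triCH1 and 1.35 ± 0.16 in control lines. Of lower genes, Gpatch4 (1449390_at) changed by -0.36 ± 0.27 in triCH1 and -1.27 ± 0.27 in control lines. Jpt1 (1438988_x_at) changed by -0.72 ± 0.15 in triCH1 and -0.26 ± 0.15 in control lines. Leaving out a line kept their shared calls in 1 and 2 of 6 fits. Of brighter Gpatch4 probe sets, 1425820_x_at was called (-0.54) and 1419205_x_at was not (-0.28). The brighter probe sets of Jpt1 were not called (-0.19 and -0.13). None of the 8 differences between line types passed after adjustment (limma), and beyond Egln3 each had an adjusted p of 0.99983. The most raised gene, Bnip3 (1422470_at), which marks mitochondria for removal, rose by 4.39 ± 0.17 in triCH1 and 4.46 ± 0.17 in control lines. Crebbp (1435224_at, -0.05 ± 0.11) and Ep300 (1434765_at, -0.32 ± 0.19) were not called in hypoxia, nor were the 4 tested sex markers Xist, Kdm5d, Eif2s3y and Uty.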

How the data were processed

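RNA of 12 cultures, 6 lines at 2 oxygen levels, was hybridised to Affymetrix Mouse430_2 arrays, 1 colour, biotin label. The deposited values are probe set signals, an intensity on a linear scale, computed by the authors with the array maker's Statistical method and brought to a common target of 500, per the labels. The software version is not given in the sources used here, and the number of arrays limits the precision of every value. Of 45101 probe sets, 64 manufacturer's controls were left out of the tests, and 34945 had exactly 1 gene symbol in the platform annotation (932 had several, 9160 none).

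Values were tested as log2(signal + 20) for the 18903 probe sets averaging at least 100, without further normalization, by limma 3.58.1 in R 4.3.3 (lmFit, eBayes with a variance trend, two-sided, Benjamini-Hochberg over all tested probe sets, called at an adjusted p under 0.05). Changes are hypoxia minus normoxia with standard errors, and they understate dim genes because of the added 20. The model had the line as a fixed block (5 residual degrees of freedom), since hypoxia and normoxia cultures of a name come from 1 line. After removal of group means, pairs correlated at 0.28 to 0.58 except flox2_2 (-0.02). A further model added treatment by line type, triCH1 minus control. Lists used the probe set with the highest mean per gene and are given as counts and medians. Named genes were those with 1 symbol and 1 sign in all lines: the 24 lower and the 24 higher by under 2-fold with the smallest p, the 8 largest, the 4 higher and 4 lower with the smallest p of the difference, up to 6 of each list by p, and Crebbp, Ep300 and the sex markers. The members and lists were chosen with earlier results of these data known. On simulated data for this comparison (18903 probe sets, 100 changed by each size), changes of 0.5 and 1 log2 unit were called in 51% and 94% of cases, with 12 false calls. Figures were drawn with matplotlib. The alternatives were other pseudocounts, filters, scalings and variance models, the line as a random or absent block, 1 value per gene, a minimum change of 1.2-fold, subsets of lines and omission of each line.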

Additional observations from a re-analysis of the deposited data

Results flagged for a closer look

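Of 100 sets of 6 line values examined, 2 had a line far from the other 5, where chance alone gives about 1 set in 20. Maff, the small Maf factor gene, changed by 1.17 on the log2 scale in flox2_1, against 0.66 to 0.82 in the other lines. The median change of the 15 NRF2 targets, genes of the oxidative stress response, was 0.247 in flox2_1, against -0.01 to 0.05 in the others. Both belong to the line whose normoxia array had the lowest scale factor, and the part of that array in these values was not tested.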

How the results depend on the processing

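The main counts were 500 probe sets higher, 336 lower and 337 higher by under 2-fold. Without the line as a block they were 269, 62 and 121. With a minimum change of 1.2-fold they were 215, 12 and 60. Of the 336 lower probe sets of the main fit, 222 changed by under 1.5-fold, and the smallest change was 1.21-fold. The 4 lines with a floxed p300 allele alone gave 285, 70 and 133, the triCH1 lines alone 280, 44 and 129, and the control lines alone 175, 8 and 26, each with fewer arrays. Without a variance trend 209 were lower and 209 higher by under 2-fold, and the cause was not tested. With 1 value per gene 326 were higher, with fewer features tested. Leaving out a line gave 348 to 616 higher, 138 to 426 lower and 182 to 455 higher by under 2-fold. Median centring gave 564 higher and 264 lower, so that 68.1% of calls were higher against 59.8%. With a random block (correlation 0.297) 443 were higher and 280 lower, and chemokine and NF-kB genes called lower went down to 2, against 7. A pseudocount of 100 lowered the medians of glycolytic and other HIF targets to 1.04 and 1.12, by its construction, and the control lines alone gave histone demethylases a median of 0.10. Lox changed sign to -0.0522 with 1 value per gene (adjusted p = 0.794). The count of probe sets that differed between line types was 0 under each alternative that fitted that test, but the number at an unadjusted p under 0.05, 302, became 2034 without flox2_2. Of the 24 repressed and 24 modestly higher genes, 15 and 22 were called under every one of 11 settings with all 6 lines in which they were tested, and 11 and 24 with the minimum change of 1.2-fold. Probe sets under a mean of 100 were not tested in the main model, and dim genes are limited by background.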

Other observations

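Circadian clock genes included some of the larger shared increases. Over all genes, 3.1% were higher and 2.12% lower. Of 15 clock genes tested, 4 were higher: Ciart (1435188_at, 2.30 ± 0.16, adjusted p = 5.35e-07), Rora (1.60 ± 0.18), Bhlhe40 (1.34 ± 0.10) and Nfil3 (0.51 ± 0.10), which encode repressors of the clock and an activator, Rora. Ciart had 479, 514 and 705 as the lowest, median and highest signal in hypoxia against 80.4, 97.4 and 136 in normoxia. The 1 lower member was Csnk1d, whose probe sets disagree. In the MYC network of 10 tested genes, Mxi1, a MYC antagonist gene, was higher (1.94 ± 0.16) and Mlx, a partner of glucose-responsive factors, lower (-0.49 ± 0.11). The call of Mlx was kept in 3 of 6 fits that left out a line, and its other probe set did not pass (-0.38 ± 0.13). Among 33 genes of AMPK, mTOR and autophagy, 4 were higher, among them Ddit4, an inhibitor of mTOR signalling (1.19 ± 0.09). The 1 lower was Ddit4l, a relative of Ddit4 (-0.63 ± 0.15). It was dim (mean 210), and its call was kept in 2 of 6 fits that left out a line.

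H2-Ab1 (1450648_s_at), a chain of the class II antigen-presenting complex, was called higher in hypoxia (adjusted p = 0.000102). Its change was 2.80 with 20 added to the signals, 3.81 with 1 and 1.61 with 100, since 4 normoxia signals were very dim. In hypoxia its signal was 431, 331 and 336 in triCH1flox1, triCH1flox2_1 and triCH1flox2_2 and 279, 269 and 304 in flox1, flox2_1 and flox2_2. In normoxia it was 173, 6.3 and 9 in the triCH1 lines and 74, 8 and 16 in the control lines, so both lines with a floxed Crebbp allele were the high ones. Other class II genes, named after their values were seen, were dim and did not move together. The median signal of Cd74 was 56.3 in hypoxia and 47.0 in normoxia. That of H2-Eb1 (1417025_at) was 52.5 in hypoxia and 26.4 in normoxia. Each H2-Aa probe set had a lower median in hypoxia, the brightest with 20.05 against 23.8 in normoxia. Ciita medians hardly differed, with 34.5 in hypoxia and 34.55 in normoxia at the brightest probe set. The other H2-Ab1 probe sets, which were not tested, had medians of 79.55 and 100.45 in hypoxia against 9.25 and 20.1 in normoxia. Krt19, a keratin gene, was the 1 of 4 tested epithelial markers called (1.69 ± 0.17, adjusted p = 2.53e-05). The summed signal of 10 epithelial markers was 4523 to 8163 in hypoxia and 2256 to 4069 in normoxia and was higher in 6 of 6 lines, while Epcam, Krt18 and Krt7 were not called. Krt19 alone had 3020 to 7281 in hypoxia and 968 to 1810 in normoxia. The median change of the 4 tested markers was -0.04.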
